A study of Homo sapiens with 8 samples.

Results

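Long noncoding RNAs were followed across 4 transfections of Reh cells, an established human B-cell precursor line. They were selected by symbol: probe sets with 1 gene symbol that begins with LINC, ends in -AS1, -DT or -IT1, or names the host of a microRNA (MIR...HG) or of small nucleolar RNAs (SNHG). TOX-DT was left out by the same rule. Of 2433 such probe sets (1815 genes), 504 (405 genes) reached log2 5 on at least 2 of the 8 arrays and are the members described here, among 24481 probe sets (11449 genes) tested and 54675 probe sets on the array. By the form of their symbol, 206 of the 405 genes were antisense, 109 intergenic (LINC), 71 divergent, 9 microRNA hosts, 5 small nucleolar RNA hosts and 5 intronic. MIR155HG itself is outside the rule, because the probe set that carries its symbol also carries that of MIR155; it is reported as a shared probe set.

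A long noncoding RNA is a transcript that is processed much like a messenger RNA but is not known to be translated. Antisense members are transcribed from the strand opposite a neighbouring coding gene, and divergent members start next to a coding gene's promoter and run away from it. Host genes are different in kind: microRNAs or small nucleolar RNAs are cut out of their transcripts, so the spliced RNA seen by an array is only the carrier. MIR155HG, also known as BIC, is the host of miR-155 and is a well-known activation-induced transcript of B cells.

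The control cells had received a control shRNA construct (their titles say mock). The other cells had received an shRNA against CBFA2T3, a transcriptional corepressor of blood progenitors, or IKKβ(EE), or the shRNA and IKKβ(EE) together. IKKβ(EE) is a constitutively active form of IκB kinase β, which triggers the breakdown of IκB proteins and so frees NF-κB. Each group had 2 arrays, given as biological replicates 1 and 2, of cells transfected transiently. Whether a control shRNA was also given in the group with IKKβ(EE) alone is not said, and the labels call the line a non-Hodgkin lymphoma where the design text calls it an acute lymphoblastic leukaemia. Values are log2 intensities, made by the authors with RMA. Levels are compared within a probe set and not between probe sets. Because bulk RNA was measured, fewer cells with a transcript and less of it per cell cannot be told apart.

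The targeted genes moved as labelled. CBFA2T3 was at 9.22 and 9.29 on the control arrays, at 8.40 and 8.11 with its shRNA (-1.0 ± 0.16, SE of the fit, limma adjusted p = 0.0518, and 0.01 with the replicate number as a block) and at 8.23 and 7.83 with both (-1.23 ± 0.16). With IKKβ(EE) alone CBFA2T3 was at 8.91 and 8.89, also below the control arrays but not called (-0.36 ± 0.16, limma adjusted p = 0.54). Of the 3 probe sets of IKBKB, the gene of IKKβ, 1 was at 3.97 and 4.02 on the control arrays. It read 10.85 and 10.39 with IKKβ(EE) alone and 11.45 and 11.97 with both. Both thus exceeded IKKβ(EE) alone by 1.09 ± 0.3 at this probe set (limma adjusted p = 0.171). The other IKBKB probe sets moved by 0.32 and 0.26 with IKKβ(EE) alone. Of 12 B-cell precursor markers on the array, 11 were tested, at mean levels from 8.39 to 13.5. Of 5 T-cell markers 1 was tested (5.29), of 4 myeloid markers 0, and of 2 erythroid markers 2 (4.88 and 5.35). Arrays correlated at 0.937 to 0.991 over the tested probe sets. Replicate 2 differed from replicate 1 in the same direction in all 4 groups for 30.8% of member probe sets and for 38.0% of all tested probe sets, and a second fit that takes replicate numbers as a block is quoted where it changed a call. A gene is called here where limma's adjusted p (Benjamini-Hochberg over the 24481 probe sets) was under 0.05, using the probe set with the highest mean for each gene.

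The microRNAs of the hosts whose values follow, those that share a probe set with their host and miR-210 of MIR210HG, are shown with their seed (bases 2 to 8, the part that pairs with targets) in capitals. Sequences are from RefSeq, build GRCh38.p14. miR-155-5p lies at chr21:25573983-25574006 (plus strand), miR-22-3p at chr17:1713914-1713935 (minus strand), miR-600 at chr9:123111561-123111583 (minus strand) and miR-210-3p at chr11:568112-568133 (minus strand). miR-17-5p and miR-20a-5p of the MIR17HG transcript, on chromosome 13, share the seed AAAGUGC, and miR-19a-3p and miR-19b-3p share GUGCAAA. The mature microRNAs themselves were not measured.
hsa-miR-155-5p: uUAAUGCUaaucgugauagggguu
hsa-miR-22-3p: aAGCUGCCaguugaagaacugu
hsa-miR-600: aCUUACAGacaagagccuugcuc
hsa-miR-210-3p: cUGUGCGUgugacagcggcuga
hsa-miR-17-5p: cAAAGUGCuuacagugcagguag
hsa-miR-20a-5p: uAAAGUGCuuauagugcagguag
hsa-miR-19a-3p: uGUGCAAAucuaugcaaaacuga
hsa-miR-19b-3p: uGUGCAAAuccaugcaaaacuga

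The probe set assigned to both MIR155 and MIR155HG was high wherever IKKβ(EE) was present. It stood at 7.79 and 8.48 on the control arrays, 7.66 and 8.31 with the CBFA2T3 shRNA, 9.51 and 10.38 with IKKβ(EE) and 10.16 and 11.14 after both. The 4 arrays with IKKβ(EE) lay above the 4 without it, and the shRNA arrays overlapped the controls. Within each group replicate 2 was the higher array. Against control the change was 2.52 ± 0.43 with both (5.72-fold, limma adjusted p = 0.0197), 1.81 ± 0.43 with IKKβ(EE) alone (adjusted p = 0.215) and -0.15 ± 0.43 with the shRNA (adjusted p = 0.908). With the replicate number as a block the IKKβ(EE) change passed too (limma adjusted p = 0.000604). Both exceeded IKKβ(EE) alone by 0.71 ± 0.43, which passed only with the block (limma adjusted p = 0.486, and 0.0282 with the block). The call with both was lost without control replicate 1 (limma adjusted p = 0.108), without control replicate 2 (0.0922) and without replicate 2 of both (0.0934).

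Other host RNAs that share a probe set with their small RNA moved differently. The probe set of MIR22 and MIR22HG was at 4.05 and 4.26 in control cells, 4.79 and 5.84 with the shRNA, 4.28 and 4.62 with IKKβ(EE), and 5.86 and 7.08 with both. The 2 arrays with both were the highest, and the shRNA arrays also lay above the control arrays. The change with both was 2.32 ± 0.44 (limma adjusted p = 0.0263), against 1.16 ± 0.44 with the shRNA (adjusted p = 0.253, and 0.0355 with the block) and 0.30 ± 0.44 with IKKβ(EE) (adjusted p = 0.833). Its control mean lay under log2 5, close to background, so the fold is uncertain, and the call was lost without control replicate 1 (limma adjusted p = 0.124), control replicate 2 (0.138) or replicate 2 of both (0.104).

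MIR600 and MIR600HG share a probe set that went the other way. It read 7.81 and 7.98 in control cells, 7.28 and 7.46 with the shRNA, 7.21 and 7.28 with IKKβ(EE), and 6.77 and 6.85 with both, so that no treated array reached the control arrays. The fall with both was -1.08 ± 0.13 (limma adjusted p = 0.0062, and 0.0694 without control replicate 2), and with the block it was also called for the shRNA (-0.52, limma adjusted p = 0.0247) and for IKKβ(EE) (-0.65, limma adjusted p = 0.0175). The probe set of the MIR17HG transcript and its 6 microRNAs, which belong to the miR-17-92 cluster, was at 7.72 on both control arrays, 7.28 and 7.08 with the shRNA, 7.48 and 7.30 with IKKβ(EE), and 7.47 and 6.88 with both (-0.55 ± 0.20, limma adjusted p = 0.129, and 0.0350 with the block). Of 34 tested probe sets shared by a host and its small RNAs, 3 were called with both against control, where 8.43% of all tested probe sets were called. With the block 8 of the 34 were, where 23.7% of all were. Host and small RNA pairs other than MIR155HG were chosen after the annotation was seen. The 20 shared probe sets of 14 SNHG hosts ranged from -0.44 to 0.35 with both, and 0 were called.

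**Figure D1:**
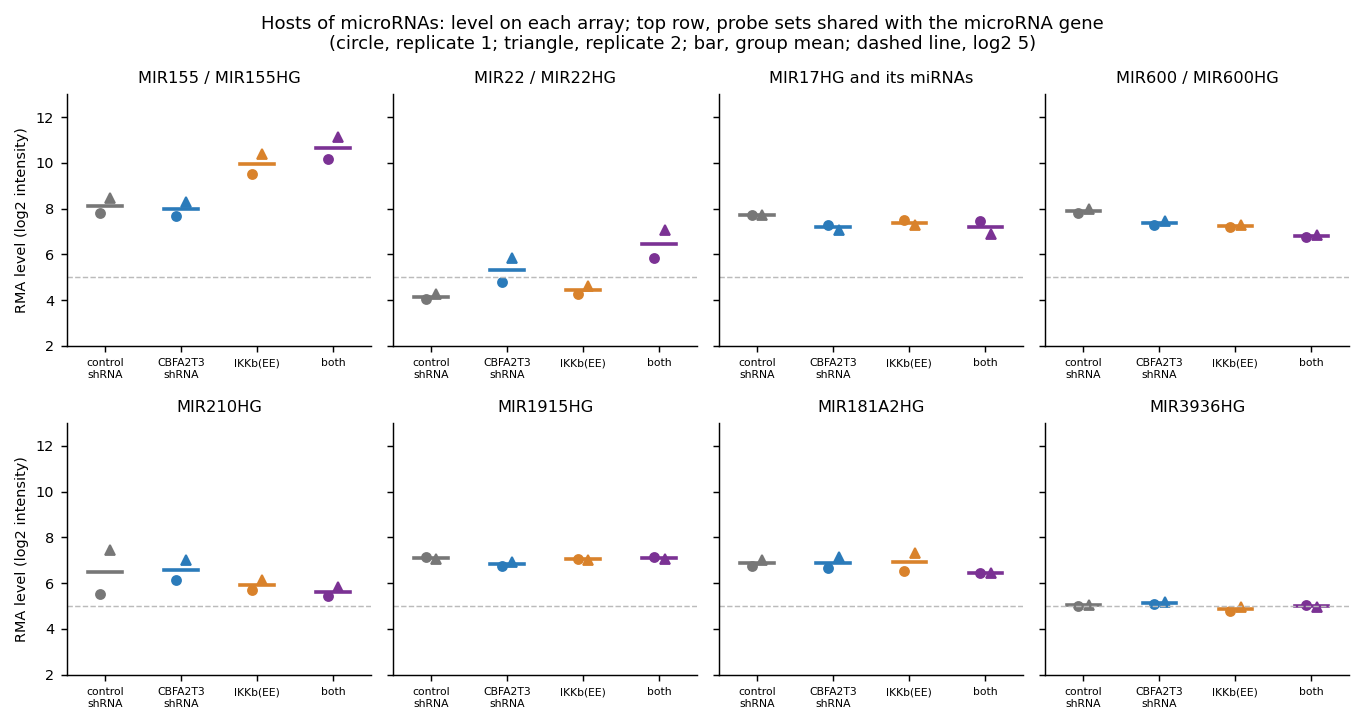
Level (RMA log2 intensity, vertical axis) of microRNA host probe sets on each of the 8 arrays, by group (horizontal axis); circles are replicate 1, triangles replicate 2, bars group means, and the dashed line is log2 5. The MIR155 / MIR155HG probe set lies above 9.5 on the 4 arrays with IKKβ(EE) and below 8.5 on the others, while MIR210HG spreads most between the 2 control arrays (5.53 and 7.44).

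Among the hosts measured on their own, 0 of 9 microRNA hosts and 0 of 5 small nucleolar RNA hosts were called in any of the 3 comparisons with control, with or without the block, at the probe set with the highest mean. Of all tested genes 0.839% were called with the shRNA, 0.297% with IKKβ(EE) and 8.73% with both. With the block these shares were 7.8%, 3.68% and 24.1%. The hosts are few, and whether their counts of 0 differ from these shares was not tested. MIR210HG, the host of the hypoxia-induced miR-210, was at 5.53 and 7.44 in control cells, 6.14 and 7.0 with the shRNA, 5.71 and 6.12 with IKKβ(EE), and 5.43 and 5.83 with both. Replicate 2 was higher in every group, and all other arrays but 1 lay between the control arrays (-0.86 ± 0.57 with both, limma adjusted p = 0.373). MIR550A3HG was at 7.26 and 7.21 in control cells, 7.54 and 7.60 with the shRNA, 6.85 and 6.65 with IKKβ(EE), and 7.01 and 6.84 with both. The difference of -0.65 ± 0.13 between both and the shRNA passed only with the block (limma adjusted p = 0.0809, and 0.0218 with the block).

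The remaining microRNA hosts moved with both, uncalled, as follows: MIR1-1HG by -0.36 ± 0.15, MIR181A2HG by -0.43 ± 0.26, MIR3667HG by -0.13 ± 0.18, MIR3936HG by -0.02 ± 0.12, MIR570HG by 0.03 ± 0.11 and MIR9-1HG by 0.00 ± 0.13. The probe sets of MIR1915HG disagreed. The one with the higher mean moved by 0.01 ± 0.12 with both, and the other read 5.19 and 5.56 in control cells and 4.64 and 4.21 with both (-0.95 ± 0.21, limma adjusted p = 0.039). The snoRNA hosts were SNHG17 (-0.09 ± 0.12), SNHG19 (-0.31 ± 0.18), SNHG32 (0.23 ± 0.31), SNHG33 (0.10 ± 0.20) and SNHG4 (-0.09 ± 0.32). In RefSeq, 8 of the 311 members whose strand was at hand hold the hairpins of 9 microRNA genes on their own strand. Members without a strand were not searched for hairpins. Of the 401 members matched to RefSeq, 11 hold a small nucleolar RNA gene on either strand.

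With the shRNA and IKKβ(EE) together, 35 of the 405 members were called, 15 higher and 20 lower. This is 8.64% of the members, against 8.73% of all 11449 tested genes, close to the share of genes in general. Of all genes 4.97% were called higher and 3.76% lower. With the replicate block 93 members were called (23.0%), against 24.1% of all genes, and all 35 stayed called. The median change of the 405 members was -0.044, and that of all tested genes -0.021. Among antisense members 17 of 206 were called, among intergenic 13 of 109, among divergent 5 of 71, and among intronic 0 of 5. In all 35 the 2 arrays with both lay on 1 side of the 2 control arrays. That is no further support for the calls, since the share among other called genes is not given. The count rests on single arrays: it was 3 without control replicate 1, 1 without control replicate 2, 19 without either shRNA array, 26 without either IKKβ(EE) array, 59 without replicate 1 of both and 7 without replicate 2 of both. NR2F1-AS1 alone was called in every one of these 8 fits, and without control replicate 2 it was the single call. LRP8-DT and USP30-AS1 were lost in 1 of the 8, and LINC00528, MAP3K2-DT and LINC01694 in all 8.

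NR2F1-AS1, transcribed opposite the gene of the orphan nuclear receptor NR2F1, changed most. It was at 5.06 and 4.64 on the control arrays, 4.39 and 4.43 with the shRNA, 7.92 and 7.72 with IKKβ(EE), and 9.39 and 9.99 with both. The 4 groups did not overlap, and the order was shRNA, control, IKKβ(EE) and both. The rise with both was 4.84 ± 0.22 (limma adjusted p = 0.000185). Its control mean lay under log2 5, close to background, so the corresponding 28.7-fold is uncertain. NR2F1 itself was at 5.43 and 5.59 in control cells and at 5.79 and 6.50 with both (0.64 ± 0.22, limma adjusted p = 0.118, and 0.0477 with the block).

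LINC01619 and LINC00158 also rose strongly. LINC01619 was at 4.19 and 4.02 in control cells, 4.47 and 4.86 with the shRNA, 6.62 and 7.48 with IKKβ(EE), and 6.46 and 8.0 with both. All 4 arrays with IKKβ(EE) were above the rest, and those of the double transfection straddled those with IKKβ(EE) alone (3.13 ± 0.48 with both, limma adjusted p = 0.0147). The control and shRNA arrays of LINC01619 lay under log2 5, close to background, so the size of this rise is uncertain. LINC00158 was at 6.53 and 6.99 in control cells, 5.14 and 5.66 with the shRNA, 8.48 and 9.08 with IKKβ(EE), and 8.48 and 9.70 with both. Here the shRNA arrays were the lowest of all and the arrays with IKKβ(EE) the highest (2.33 ± 0.41 with both, limma adjusted p = 0.0204).

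LINC00520 was at 4.23 and 4.30 in control cells, 4.37 and 4.14 with the shRNA, 5.15 and 5.19 with IKKβ(EE), and 6.28 and 7.23 with both. The control and shRNA arrays stayed under log2 5, and each array with both lay above each with IKKβ(EE) alone (2.49 ± 0.27, limma adjusted p = 0.00505). EDNRB-AS1, opposite an endothelin receptor gene, was at 3.40 and 4.84 in control cells, 5.14 and 5.32 with the shRNA, 5.52 and 6.69 with IKKβ(EE), and 6.20 and 8.27 with both (3.12 ± 0.72, limma adjusted p = 0.0428). All treated arrays lay above the control arrays, and the standard error was the widest of the 15 risers. AFTPH-DT, divergent from the gene of the trafficking protein aftiphilin, was at 3.37 and 2.67 in control cells, 4.17 and 4.33 with the shRNA, 4.55 and 5.02 with IKKβ(EE), and 4.81 and 5.93 with both (2.35 ± 0.38, limma adjusted p = 0.0169). LINC00520, EDNRB-AS1 and AFTPH-DT all started near background, so their folds are uncertain.

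USP30-AS1, named after a mitochondrial deubiquitinase gene, was at 5.96 and 5.49 in control cells, 6.49 and 6.59 with the shRNA, 6.70 and 6.30 with IKKβ(EE), and 7.67 and 7.30 with both. Each treatment alone lay above control, and both lay highest (1.76 ± 0.21, limma adjusted p = 0.00705). LINC01215 was at 8.82 and 9.34 in control cells, 9.41 and 9.93 with the shRNA, a mean of 10.36 with IKKβ(EE), and 10.23 and 11.05 with both (1.56 ± 0.35, limma adjusted p = 0.0398). Every array with both was above every control array. GAS6-AS1 rose by 0.88 ± 0.15 and LINC00621 by 0.86 ± 0.18; a second GAS6-AS1 probe set moved by 0.38 ± 0.16 and was not called. EXOC3-AS1, SCAMP1-AS1, LINC00528, MAP3K2-DT and LINC01694, the last 5 of the 15, rose by 0.44 to 0.76. Of the 15 risers 8 rose by over 1 on the log2 scale, and 6 of the 15 had a control mean under log2 5. The filter on level shapes this: a member that is dim in control cells enters only through treated arrays where it is higher.

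**Figure D2:**
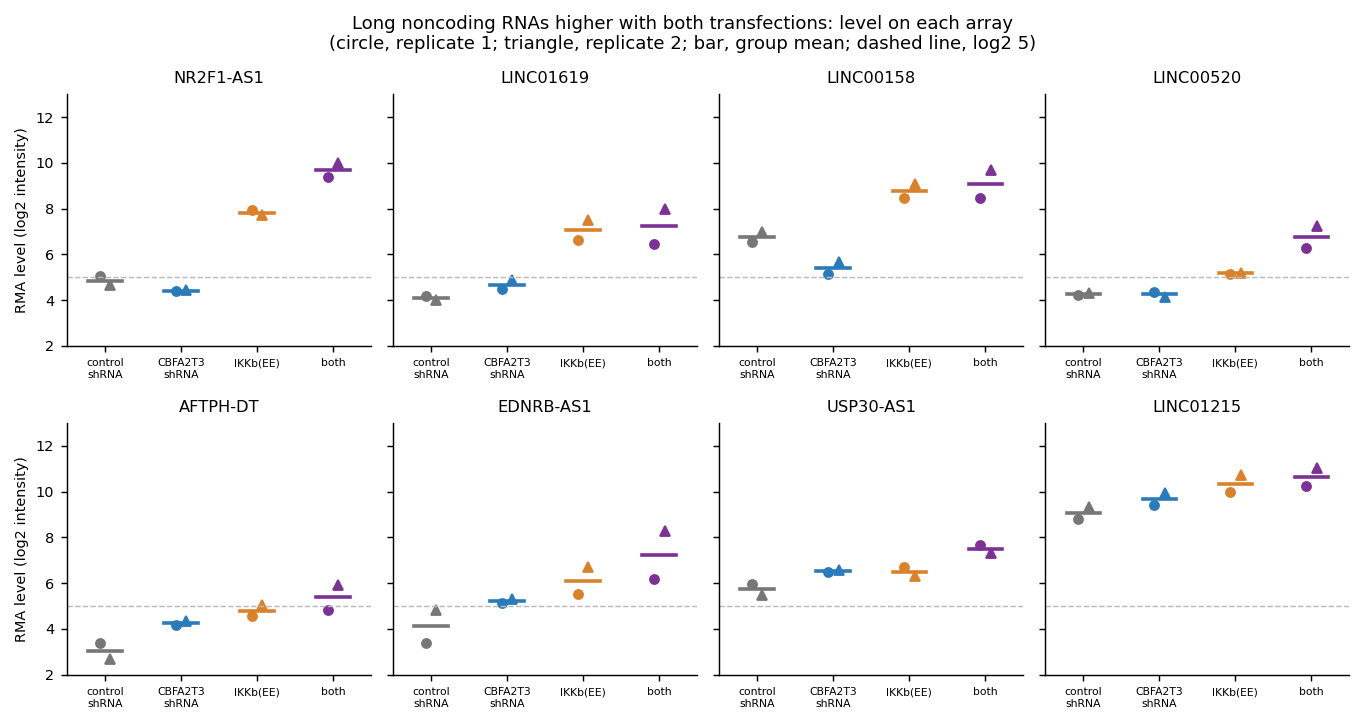
Level (RMA log2 intensity, vertical axis) on each array, by group (horizontal axis), of the 8 long noncoding RNAs with the largest called rise with both transfections; circles are replicate 1, triangles replicate 2, bars group means, and the dashed line is log2 5. NR2F1-AS1 reaches 9.99 from about 5 in control cells, and LINC00158 is lowest with the CBFA2T3 shRNA alone (5.14 and 5.66).

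Of the 20 members called lower, 8 fell by over 1 on the log2 scale. All had a control mean of log2 5 or more, which the filter on level favours for members that fall. LINC01922 fell furthest: it was at 7.0 and 7.45 in control cells, 6.42 and 6.21 with the shRNA, 7.19 and 7.10 with IKKβ(EE), and 6.24 and 5.19 with both (-1.51 ± 0.32, limma adjusted p = 0.0325). The call was lost in 7 of the 8 fits with an array left out, and its other probe set fell too (-0.61 ± 0.12, limma adjusted p = 0.031). ATP2A1-AS1, opposite the gene of a muscle calcium pump, went from 8.23 and 8.49 to 7.22 and 6.72 (-1.39 ± 0.18, limma adjusted p = 0.00887). The shRNA arrays of ATP2A1-AS1 (7.5 and 7.37) and its IKKβ(EE) arrays (7.81 and 7.72) lay between.

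ZBED5-AS1 was at 7.27 and 7.43 in control cells, 6.36 and 5.99 with the shRNA, 7.19 and 7.42 with IKKβ(EE), and 6.40 and 5.83 with both. The 4 arrays with the shRNA were low and the 4 without it high (-1.24 ± 0.22 with both, limma adjusted p = 0.0209). TSPOAP1-AS1, whose RefSeq span holds MIR142 on the opposite strand, was at 8.75 and 8.97 in control cells, 8.11 and 7.90 with the shRNA, 8.83 and 9.29 with IKKβ(EE), and 8.09 and 8.07 with both (-0.78 ± 0.18, limma adjusted p = 0.04). Its arrays divided in the same way, by the shRNA, but its second probe set was not called (-0.37 ± 0.16, limma adjusted p = 0.19).

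OIP5-AS1, known as cyrano, is described because its 3 probe sets allow a check; TSPOAP1-AS1 and OIP5-AS1 were picked with their values in view. Its first probe set was at 11.92 and 12.21 in control cells, 11.41 and 11.10 with the shRNA, 11.86 and 12.00 with IKKβ(EE), and 11.34 and 11.25 with both. All arrays with the shRNA lay below all arrays without it. The 3 probe sets fell by 0.77, 0.76 and 0.85 with both, and limma called each of them (adjusted p = 0.031, 0.0299 and 0.0494).

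LRP8-DT, divergent from the gene of a lipoprotein and reelin receptor, went from 7.36 and 7.67 in control cells to 6.82 and 6.61 with the shRNA, 7.22 and 7.19 with IKKβ(EE) and 6.41 and 6.20 with both (-1.21 ± 0.15, limma adjusted p = 0.00782). The control arrays were the highest and the arrays with both the lowest. TIAM1-AS1, opposite the gene of a Rac activator, was at 5.56 and 5.74 in control cells, 4.87 and 5.36 with the shRNA, 5.08 and 5.33 with IKKβ(EE), and 4.65 and 4.01 with both (-1.32 ± 0.25, limma adjusted p = 0.0251). Of the others, ESAM-AS1 fell by 1.32 (± 0.32), LINC01963 by 1.18 (± 0.21), LINC02891 by 1.10 (± 0.19), ZNF232-AS1 by 0.89 (± 0.18) and LINC02273 by 0.86 (± 0.18). The remaining called members, TNS1-AS1, MCM3AP-AS1, LINC00294, TMPO-AS1, UBL7-DT, SLC12A2-DT, LINC01139, ELOA-AS1 and OIP5-AS1, fell by 0.50 to 0.83. Where these genes had further probe sets, those of UBL7-DT (-0.26 ± 0.23), ZNF232-AS1 (-0.73 ± 0.19) and SLC12A2-DT (-0.20 ± 0.20 and -0.25 ± 0.17) were not called.

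**Figure D3:**
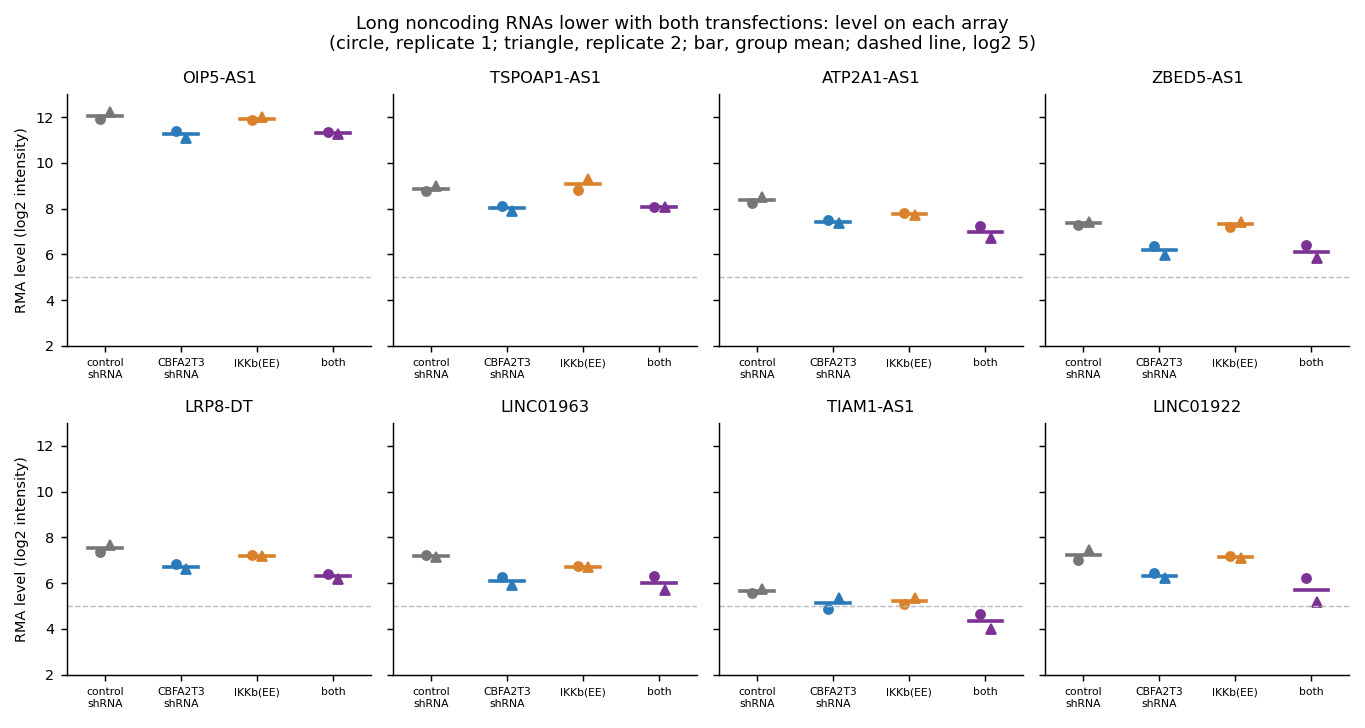
Level (RMA log2 intensity, vertical axis) on each array, by group (horizontal axis), of 8 long noncoding RNAs called lower with both transfections; circles are replicate 1, triangles replicate 2, bars group means, and the dashed line is log2 5. In OIP5-AS1, TSPOAP1-AS1 and ZBED5-AS1 the 4 arrays with the CBFA2T3 shRNA lie below the 4 without it.

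Knockdown of CBFA2T3 alone called 1 member, UBE2D3-AS1, named after a ubiquitin-conjugating enzyme gene. It was at 5.11 and 5.10 in control cells, 5.91 and 5.96 with the shRNA, 5.07 and 5.02 with IKKβ(EE), and 5.45 and 5.46 with both. The shRNA arrays were the highest, and those with both lay between (0.83 ± 0.11 with the shRNA, limma adjusted p = 0.033, and 0.34 ± 0.11 with both, adjusted p = 0.0872). All arrays without the shRNA stood just above the floor of log2 5, so the size of this rise is uncertain. The call of UBE2D3-AS1 was lost without either control array, either shRNA array or either IKKβ(EE) array (limma adjusted p from 0.0642 to 0.299). The 1 call is 0.247% of the members, where 0.839% of all genes were called; with the block it was 34 members (8.40%) and 7.8% of all genes.

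The largest other rises with the shRNA, none of them called, were AFTPH-DT (1.23 ± 0.38), EDNRB-AS1 (1.11 ± 0.72) and ATP2B1-AS1 (1.01 ± 0.32). The largest falls, also not called, were LINC00158 (-1.36 ± 0.41, limma adjusted p = 0.169, and 0.00988 with the block), ZBED5-AS1 (-1.17 ± 0.22, adjusted p = 0.0645, and 0.0197 with the block) and LINC01963 (-1.10 ± 0.21, adjusted p = 0.0706, and 0.0105 with the block). A second probe set of LINC01128, dim at 4.55 and 4.14 in control cells, was at 5.57 and 5.61 with the shRNA (1.25 ± 0.20, limma adjusted p = 0.0487), whereas its probe set with the higher mean moved by -0.06 ± 0.13.

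IKKβ(EE) alone also called 1 member, NR2F1-AS1 (2.97 ± 0.22 from a control mean under log2 5, limma adjusted p = 0.00458), 0.247% of the members where 0.297% of all genes were called. The call was lost without control replicate 2 (limma adjusted p = 0.0807) and without control replicate 1 (0.05, at the threshold). With the block 17 members were called (4.20%, against 3.68% of all genes), 16 of them higher. Among all genes 363 of the 421 called were higher too. LINC01619 (2.94 ± 0.48, limma adjusted p = 0.0858, and 0.00646 with the block) and LINC00158 (2.02 ± 0.41, 0.146 and 0.00228) were among the 16 members. The control mean of LINC01619 also lay under log2 5, so the size of its rise is uncertain. NR2F1-AS1 and LINC01619 passed the filter on level only with the help of the arrays with IKKβ(EE). The filter thus favours their rises in this comparison. ITGB2-AS1, opposite the gene of the leukocyte integrin β2, was at 4.11 and 4.37 in control cells, 5.89 and 7.62 with IKKβ(EE), and 6.20 and 9.04 with both, and its replicates stood far apart in both groups with IKKβ(EE) (2.51 ± 0.88, limma adjusted p = 0.422).

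The largest falls with IKKβ(EE), not called, were ESAM-AS1 (-0.83 ± 0.32), TRG-AS1 (-0.63 ± 0.15) and ATP2A1-AS1 (-0.60 ± 0.18). TRG-AS1, opposite T-cell receptor gamma genes, was at 7.16 and 7.07 in control cells, 7.15 and 7.19 with the shRNA, 6.64 and 6.33 with IKKβ(EE), and 6.70 and 6.42 with both, and was called with the block (limma adjusted p = 0.0375). IKBKB-DT, divergent from the kinase's own gene and chosen for that, stayed between 5.52 and 5.79 on all 8 arrays.

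**Figure D4:**
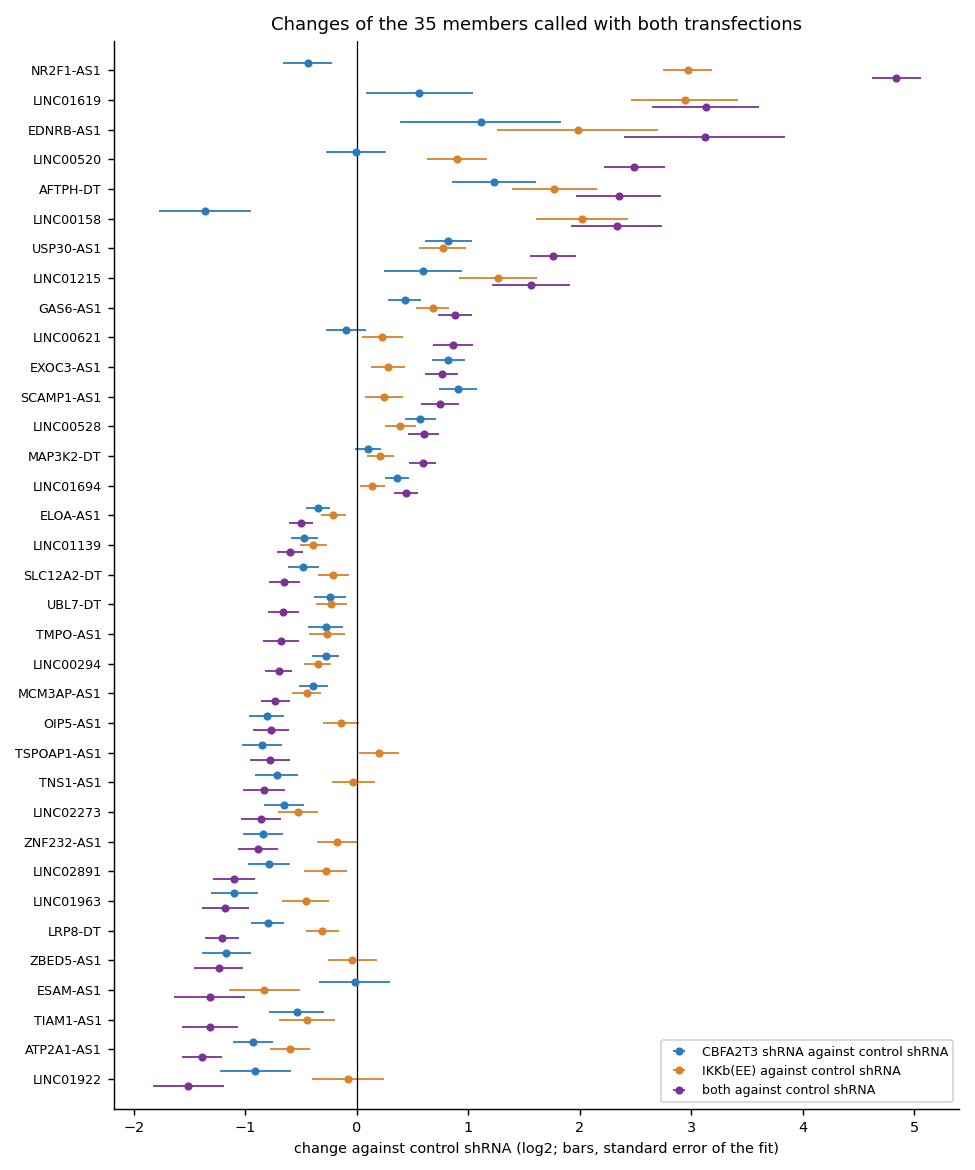
Change against control shRNA (log2, horizontal axis) of the 35 members called with both transfections (vertical axis), with the CBFA2T3 shRNA, IKKβ(EE) or both; bars are standard errors of the fit. The 3 comparisons share the control arrays; the median change of the 15 risers was 0.56, 0.77 and 1.56, and that of the 20 fallers -0.68, -0.27 and -0.85, in that order.

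The 35 members were chosen by their change with both, and the single treatments share the control arrays with it, so their values are given side by side only. The 15 risers had medians of 0.56 (shRNA), 0.77 (IKKβ(EE)) and 1.56 (both). The 20 fallers had medians of -0.68, -0.27 and -0.85 in that order. Of the risers, NR2F1-AS1, LINC00158, LINC00520 and LINC00621 were below 0 with the shRNA and above 0 with IKKβ(EE), at -0.44 and 2.97, -1.36 and 2.02, -0.01 and 0.90, and -0.10 and 0.23.

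Adding IKKβ(EE) to the shRNA called 3 members, all higher: NR2F1-AS1 (5.28 ± 0.22, limma adjusted p = 0.000141), LINC00158 (3.69 ± 0.41, 0.0112) and LINC00520 (2.50 ± 0.27, 0.0112). NR2F1-AS1 and LINC00520 were under log2 5 with the shRNA and passed the filter only with the help of the arrays with IKKβ(EE). The filter thus favours such rises, and the sizes of these are uncertain. Of all genes 0.952% were called, 104 of these 109 higher, and with the block 24 members and 5.56% of all genes were called. Adding the shRNA to IKKβ(EE) called 1 member, NR2F1-AS1 (1.87 ± 0.22, limma adjusted p = 0.04), where 0.175% of all genes were called; with the block it was 14 members and 4.62% of all genes. That call of NR2F1-AS1 held in 1 of the 8 fits with an array left out (without replicate 1 of both), with limma adjusted p from 0.0122 to 0.328. LINC00520 (1.59 ± 0.27, limma adjusted p = 0.085) and ZBED5-AS1 (-1.20 ± 0.22, 0.0938) passed only with the block (0.0257 and 0.0297).

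The interaction, which compares the change with both to the single changes added up, called 0 members with limma, with or without the block, and 0.0175% of all genes. Unadjusted p was under 0.05 for 11 members (2.72%, against 1.9% of all genes), and for 27 with the block (6.67%, against 4.95%). NR2F1-AS1 had the largest value, 2.31 ± 0.31 (limma adjusted p = 0.334), ahead of LINC00158 (1.66 ± 0.57) and LINC00520 (1.60 ± 0.39, both at an adjusted p of 1.0). NR2F1-AS1 and LINC00520 had control and shRNA means under log2 5, so the sizes of their interaction values are uncertain. The lowest values were LINC02910 (-0.86 ± 0.53), LINC00173 (-0.77 ± 0.80) and TOB1-AS1 (-0.73 ± 0.27).

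Antisense, divergent and intronic members are named after a coding gene, and for 227 of 282 that gene was tested. With both against control 20 of these members and 19 of the partner genes were called, and in 4 pairs both were, each in the same direction. Of all tested genes 8.73% were called, so neither count stands out for these pairs. The 4 were AFTPH-DT with AFTPH (1.18 ± 0.21, limma adjusted p = 0.0211), LRP8-DT with LRP8 (-0.80 ± 0.16, 0.03), TIAM1-AS1 with TIAM1 (-0.71 ± 0.12, 0.021) and TSPOAP1-AS1 with TSPOAP1 (-1.06 ± 0.20, 0.0272). In the single transfections the change of TSPOAP1 was -0.37 with the shRNA and -0.89 with IKKβ(EE) (limma adjusted p = 0.199, 0.0471 with the block). That of TSPOAP1-AS1 was -0.85 with the shRNA (limma adjusted p = 0.0815, 0.0261 with the block) and 0.20 with IKKβ(EE). These comparisons share the control arrays, and the difference between them was not tested. Across the 227 pairs the changes correlated at r = 0.38, with 0.46 for divergent and 0.37 for antisense pairs. These are descriptions across genes measured on the same arrays. Whether RNA of the partner's strand or unspliced RNA adds to a probe set's signal was not tested.

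In other pairs 1 of the 2 genes was called. ITGB2 was at 5.35 and 5.20 in control cells, 6.69 and 7.17 with the shRNA, 7.08 and 8.90 with IKKβ(EE), and 7.90 and 9.97 with both (3.66 ± 0.73, limma adjusted p = 0.0298). ITGB2-AS1 moved by 3.38 ± 0.88 with both (limma adjusted p = 0.0574, and 0.00629 with the block), so the pair lay close together. HLA-F, a nonclassical HLA class I gene, rose by 0.90 ± 0.16 (limma adjusted p = 0.0213), and HLA-F-AS1 moved by 0.12 ± 0.13 (adjusted p = 0.618). USP30 moved by -0.44 ± 0.15 (limma adjusted p = 0.119, and 0.036 with the block), opposite in sign to USP30-AS1. ZBED5 moved by -0.06 ± 0.15, GAS6 by 0.01 ± 0.11 and MCM3AP by 0.10 ± 0.12, although their antisense RNAs were called. HLA-F and MCM3AP were picked with their values in view.

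**Figure D5:**
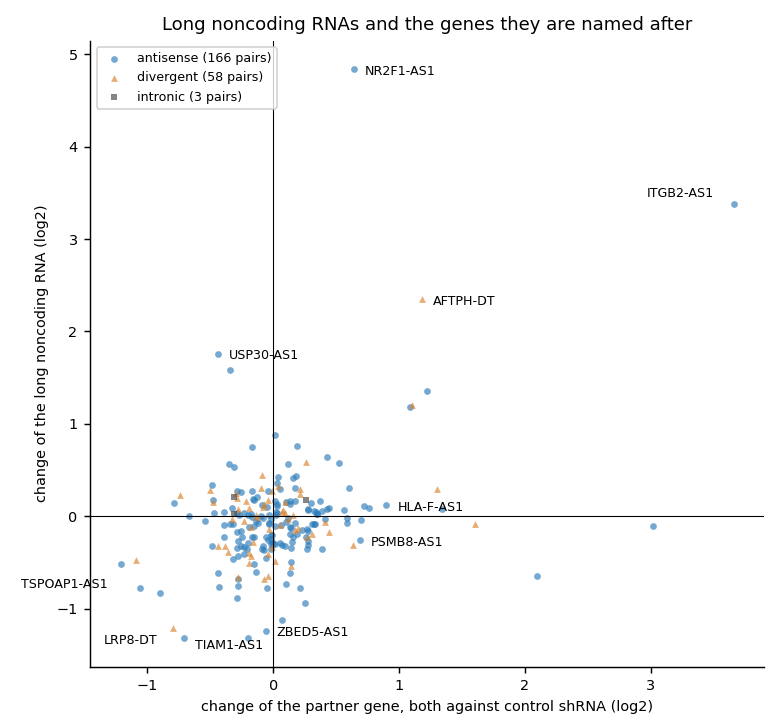
Change with both transfections against control shRNA (log2) of each antisense, divergent or intronic long noncoding RNA (vertical axis) and of the coding gene it is named after (horizontal axis), 227 pairs. AFTPH-DT (2.35) and ITGB2-AS1 (3.38) lie far out together with AFTPH (1.18) and ITGB2 (3.66), while NR2F1-AS1 rises by 4.84 where NR2F1 moves by 0.64.

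The nearest coding genes on either side of members were looked up in RefSeq, and those named were picked with their values in view. Distances are not given, so a gene named here need not lie close to the member. LINC00158 and MIR155HG are neighbours. On chromosome 21 RefSeq places 3 genes between them, none of them coding, and the nearest coding genes around both are NCAM2, which did not reach the floor, and MRPL39, which moved by 0.01 ± 0.11 with both. LINC01619 lies beside BTG1, an antiproliferative gene, on chromosome 12 (BTG1 1.10 ± 0.39 with both, limma adjusted p = 0.122, and 0.00162 with the block). NR2F1-AS1 lies between NR2F1 and ARRDC3, and ARRDC3 rose by 1.34 ± 0.27 (limma adjusted p = 0.0306). LINC02273 lies beside FBXW7, the gene of a ubiquitin ligase subunit, and FBXW7 fell by 1.09 (± 0.21, limma adjusted p = 0.026). Other called neighbours went against their member. LGALSL, beside the riser AFTPH-DT, moved by -0.70 ± 0.16 (limma adjusted p = 0.0413). NEDD1, beside the faller TMPO-AS1, moved by 0.59 ± 0.13 (limma adjusted p = 0.0416). Of all tested genes 8.73% were called with both, and whether neighbours move with members was not tested.

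RefSeq promoters (250 bases before to 50 after the start, GRCh38.p14) were at hand for 311 of the 405 members. They were searched on both strands for a κB-like motif (GGGA, N, TT, N, CC, where N is any base) and for TGANTCA, a form of the AP-1 motif. The κB-like motif was found in 5 members (1.61%), against 1.41% of 27305 promoters of all genes. TGANTCA was found in 15 (4.82%), against 7.76% of all. Of the 15 risers with both, 7 had a promoter, and 0 held the κB-like motif and 2 TGANTCA. Of the 20 fallers 17 had one, and 0 held either.

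The promoters of MIR155HG (chr21:25561895-25562194, plus strand), LINC00158 (chr21:25431652-25431951, minus strand) and LINC01215 (chr3:108125571-108125870, plus strand) are shown because each holds a TGANTCA match, in capitals, which begins 60, 36 and 224 bases upstream of the start. That of NR2F1-AS1 (chr5:93585540-93585839, minus strand), the member with the largest change, holds neither motif. A match is a description of letters, not a site, and no match says only that these letters are not in the window.
MIR155HG: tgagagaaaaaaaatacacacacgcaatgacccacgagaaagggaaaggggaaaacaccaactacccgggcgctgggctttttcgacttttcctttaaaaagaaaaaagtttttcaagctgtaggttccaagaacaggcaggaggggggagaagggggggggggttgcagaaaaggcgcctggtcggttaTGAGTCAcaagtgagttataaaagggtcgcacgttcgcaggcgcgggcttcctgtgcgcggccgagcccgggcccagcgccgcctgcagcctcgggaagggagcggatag
LINC00158: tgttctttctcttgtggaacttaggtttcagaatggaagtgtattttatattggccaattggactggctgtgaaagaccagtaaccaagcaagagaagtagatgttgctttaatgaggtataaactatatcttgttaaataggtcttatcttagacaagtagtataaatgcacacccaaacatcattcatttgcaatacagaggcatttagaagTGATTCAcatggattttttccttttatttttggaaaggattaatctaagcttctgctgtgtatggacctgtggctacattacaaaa
LINC01215: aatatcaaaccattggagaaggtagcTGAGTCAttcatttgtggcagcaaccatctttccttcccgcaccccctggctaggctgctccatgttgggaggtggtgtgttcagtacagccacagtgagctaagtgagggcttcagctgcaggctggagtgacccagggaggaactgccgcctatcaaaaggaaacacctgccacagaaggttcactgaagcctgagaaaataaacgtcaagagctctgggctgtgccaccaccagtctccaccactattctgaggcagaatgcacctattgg
NR2F1-AS1: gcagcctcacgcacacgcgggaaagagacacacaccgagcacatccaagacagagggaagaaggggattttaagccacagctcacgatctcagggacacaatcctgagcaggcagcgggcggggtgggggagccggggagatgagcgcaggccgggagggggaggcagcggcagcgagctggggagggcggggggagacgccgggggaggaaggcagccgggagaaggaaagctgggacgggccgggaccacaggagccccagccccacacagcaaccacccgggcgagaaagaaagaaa

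Genes around these RNAs were followed as lists. Of 26 tested NF-κB targets, 7 were called higher with IKKβ(EE) and 0 lower (median 1.77), where 0.28% of all genes were called higher. With both, 21 were called higher (median 2.21), where 4.97% of all genes were. With the shRNA 0 were called (median 0.10), where 0.839% of all genes were. BCL2A1, CXCL10, EBI3, CCR7 and NFKB2 passed the filter on level only with the help of the arrays with IKKβ(EE), where they were higher. The filter thus shapes the counts and medians of this list. BCL2A1, an antiapoptotic BCL2 relative, rose by 5.43 ± 0.42 with IKKβ(EE) and by 7.13 ± 0.42 with both (limma adjusted p = 0.00458 and 0.000482). CXCL10, a chemokine, rose by 5.41 ± 0.54 and 5.12 ± 0.54 (limma adjusted p = 0.0164 and 0.00455). The control means of BCL2A1 and CXCL10 (3.10 and 3.92) lay under log2 5, so the sizes of these rises are uncertain. At the other end, IRF1 and SOD2 rose with both by 0.72 ± 0.12 and 0.88 ± 0.12 (limma adjusted p = 0.0197 and 0.00938).

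Of 25 tested published miR-155 targets, 3 were called higher and 1 lower with both, with a median change of 0.11, where 4.97% of all genes were called higher and 3.76% lower. SOCS1, an inhibitor of cytokine signalling, rose by 4.0 ± 0.41 (limma adjusted p = 0.00436) and FOS by 3.04 ± 0.53 (0.021), both from control means under log2 5 (4.45 and 4.92), and JARID2, a Polycomb partner, fell by 0.55 (± 0.12, 0.0368). FOS read 7.87 and 8.36 with the shRNA alone, beside 7.39 and 8.52 with both. SOCS1 read 5.23 and 5.64 with the shRNA alone, beside 7.92 and 8.99 with both. Of 13 tested miR-17-92 targets 1 was called, CYLD, a deubiquitinase that restrains NF-κB (1.54 ± 0.26, limma adjusted p = 0.0184). Of 15 tested microRNA biogenesis genes 1 was called, TNRC6C, a partner of Argonaute, which fell by 0.79 with both (± 0.12, limma adjusted p = 0.0145) and by 0.75 with the shRNA (0.0489). With both, 1 of 13 and 1 of 15 lie near the 8.73% of all genes called.

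With both against control 0 of 11 snoRNP protein genes and 0 of 9 nonsense-mediated decay factors were called. Of 17 other tested long noncoding RNAs 1 was called, HCP5, a transcript of the HLA class I region, which rose by 1.14 (± 0.23, limma adjusted p = 0.0298). The median of these 17 was 0.04. Beside the 8.73% of all genes called, counts of 0 or 1 in lists of this size do not stand out.

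The filter on level cut close to some genes. Just inside were AGPAT4-IT1, LIN28B-AS1 and LINC01968, whose second-highest array stood at 5.009, 5.010 and 5.012. Just outside were LINC01056 and ADAD2-AS1 at 4.997 and LINC01664 at 4.996. Of the 405 members 77 had several probe sets, up to 5, and 401 matched RefSeq by gene identifier, 400 of them as long noncoding RNA.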

How the data were processed

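Reh cell RNA was measured on 8 Affymetrix U133 Plus 2.0 arrays, with 2 arrays per transfection. The deposited values are log2 intensities that the authors made with RMA, per the submitters' processing notes; its version and the genome build were not given in the sources used here. RMA sets all arrays to 1 distribution (sorted values differed from their mean by at most 0.0853), so a shift of most transcripts is removed, and folds near background are understated. Depth has no meaning for arrays: their number limits the precision (median SE of a difference 0.15).

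The 62 control probe sets and 30132 probe sets under log2 5 on all but 1 array or on all arrays were left out, which left 24481. The fit across all of them used limma 3.58.1 (R 4.3.3, with statmod 1.5.0 for array weights), with 1 mean per group and 1 spread for the 4 groups (4 residual and 3.54 prior degrees of freedom). The 6 comparisons were the 3 treatments against control, both against either alone, and the interaction. All p-values are two-sided and adjusted by Benjamini-Hochberg over all tested probe sets of a comparison, and errors after ± are standard errors of the fit. The fit was tested on simulated data with independent noise on each array. Those data held no difference shared by replicates, so that test does not cover the pairing of arrays described below. GEO's platform annotation named 1 gene for 41097 probe sets and no gene for 11777, while 1801 carried several symbols, and no gene was named from a probe set with several except host and small RNA pairs, which are named together.

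Whether replicate numbers pair the arrays was checked on the values: differences between replicates 2 and 1 correlated at 0.344 to 0.577 over probe sets in all 6 pairs of groups, so a blocked fit is quoted where it changed a call. The labels call the replicates biological but do not say that cultures were separate, so p-values may in part measure technical spread.

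The members, gene lists and tests were chosen with earlier results of these data known. Genes were named by rule: every host gene, up to 10 rises and 10 falls per comparison among called members whose arrays did not overlap between groups (the 3 largest each way where fewer than 3 were called), their partner genes, CBFA2T3, IKBKB, and up to 2 called genes at either end of each list. Alternatives were no floor, a floor at log2 6, cyclic loess, trend and robust moderation, array weights, the block, the compared groups alone, any probe set of a gene, and each array left out.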

Additional observations from a re-analysis of the deposited data

How the results depend on the processing

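Pairing the arrays by replicate number and leaving out single arrays both changed the counts. With the replicate block 34 members were called for the CBFA2T3 shRNA (1 without it), 17 for IKKβ(EE) (1), 93 for both (35), 24 for both against the shRNA (3) and 14 for both against IKKβ(EE) (1), and every call made without the block was kept. With only the compared groups in the fit these counts were 10, 3, 7, 1 and 0. For the shRNA, a floor at log2 6 gave 0, trend and robust moderation 2, array weights 10, and any probe set of a gene 2. Array weights gave 2 for IKKβ(EE), and no floor gave 5 for both against the shRNA. For both against control the alternatives other than the block, the compared groups and left-out arrays gave 26 to 38. Leaving out each array in turn gave 0 to 6 members for the shRNA, 0 to 5 for IKKβ(EE), 1 to 59 for both, 1 to 17 for both against the shRNA, 0 to 8 for both against IKKβ(EE) and 0 to 2 for the interaction, where the lone array of a group is assumed to vary like the other groups. The probe set of MIR155 and MIR155HG, at -0.15 with the shRNA, ranged from -0.50 to 0.20 as arrays were left out, with 0.20 without control replicate 2 and 0.18 without CBFA2T3 shRNA replicate 1, and was not called in any of these fits. Why counts changed was not tested, beyond fewer arrays in the smaller fits. Apart from these counts, 53 values were recomputed: 41 of called members, and 12 of the probe sets that MIR155HG, MIR22HG, MIR17HG and MIR600HG share with their microRNAs. Over the alternatives, 552 of the recomputed values stayed on their side of the threshold, 225 lost a call, 6 gained one and 2 changed sign; 40 calls were lost without control replicate 2 and 37 without control replicate 1. Other named genes are not among these values. The number of arrays limits what could be called, and 41 members had a control mean under log2 5, where folds are uncertain.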
